A study of Mus musculus with 714 samples.

Results

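The epithelium of the mouse uterus at postnatal day 14 (pnd14) was compared with that at postnatal day 7 (pnd7), gene by gene, over the interval in which the first uterine glands bud from the lining. Every deposited cell labelled pnd14 or pnd7 was taken. Cells whose counts of the smooth muscle genes Cnn1, Des, Myl9 and Mylk summed to 5 or more were left out, which removed 39 pnd14 cells (22.5% of that age) and 8 pnd7 cells (2.996%). The cells that remained numbered 56, 20 and 58 in runs 3, 4 and 7 at pnd14 and 85, 86 and 88 in runs 5, 6 and 10 at pnd7, together 55.04% of the 714 cells of the series. A run here is a block of 96 consecutive title numbers, and what a block stands for is not stated in the labels. The series holds single CD326-positive (EpCAM-positive) cells from the uterus of ICR mice, an outbred strain, at 5 ages. By the labels the groups differ in age only, and no genotype or treatment is named. Each cell was copied by CEL-seq, which amplifies RNA by in vitro transcription and counts the 3' ends of transcripts. Animals, litters and pools are not named in the labels. Each age was therefore treated as 1 sample, and no test between the ages could be made.

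At birth the mouse uterus is a simple tube of epithelium inside mesenchyme, laid down by the Mullerian duct. In the following weeks the epithelium grows, turns inward and forms glands, before the ovaries begin to cycle. Wnt, retinoid and steroid hormone signals, many of them exchanged with the underlying stroma, are known to pattern this tissue.

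Since no run holds cells of more than 1 age, age and run cannot be told apart. The pnd14 cells summed to 268815 counts, with a median of 1794 per cell, and the pnd7 cells to 701917 counts, with a median of 2492. The level of a gene is its summed count per 1000000 counts of the same cells (CPM). The ratio is given as log2 of pnd14 over pnd7, with a 95% interval in square brackets that covers counting error only. The spread between animals is not known. A summed level cannot tell fewer expressing cells from less RNA per cell.

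The cells kept carried epithelial markers. Krt18, a keratin of simple epithelia, was found in 97.8% [93.6, 99.5] of pnd14 cells and 98.8% [96.7, 99.8] of pnd7 cells, and Epcam, the gene of the sorted protein, in 36.6% [28.4, 45.3] and 43.2% [37.1, 49.5]. The pnd14 cells that were removed had Krt18 in 71.8% and Epcam in 25.6%. Near the limit, Krt18 was present in all 18 pnd14 cells with a sum of 2 to 4 and in all 9 with a sum of 5 to 7, and Epcam in 55.6% of each. At pnd7, Krt18 was in all 23 cells with a sum of 2 to 4 and in all 8 with a sum of 5 to 7, and Epcam in 34.8% and 6 of the 8. Markers of glands gave little. Of 16 gland genes, 12 were in the table and 4 reached 20 counts, and the list took 0.0450% of pnd14 counts against 0.0326% of pnd7 counts. Fgl2, a fibrinogen-like protein, was the 1 member at least 2-fold higher (3.71 [2.13, 5.72]). Without the cells that held at least 5 counts of Ovgp1 it was at 2.32. Aldh1a1, a retinaldehyde dehydrogenase, and Lgr5, a receptor that marks stem cells in several epithelia, had values of 0.03 [−0.49, 0.52], with −0.61 without run 3, and 0.27 [−0.85, 1.31], with −0.54 without run 7 and −0.48 in thinned cells. The gland factor Foxa2 was not analysed here.

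The table is uneven between the strands of the genome. Genes on the plus strand held 80.5% of all counts of the 714 cells and genes on the minus strand 15.4%, and the median row had 62 counts on the plus strand and 8 on the minus strand. Krt8 and Actb, both abundant in epithelium and both on the minus strand, had 11 and 23 counts in all cells, against 9026 for Krt18. A low level of a minus-strand gene therefore carries little information, and the cause of the imbalance was not tested. It was alike at the ages compared: the plus strand took 80.8% of pnd14 counts and 80.1% of pnd7 counts. The shares of measured genes at least 2-fold higher and lower were 9.41% and 16.5% on the plus strand and 12.004% and 20.04% on the minus strand.

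Of the genes, 5303 had at least 20 counts over both ages and are called measured. At pnd14, 9.92% of them were at least 2-fold higher and 17.2% at least 2-fold lower. In 7.52% every pnd14 run lay above every pnd7 run, and in 15.7% every pnd14 run lay below every pnd7 run. The median log2 ratio of all measured genes was −0.12. These shares depend on thinly counted genes: with the single cell that held most of a gene's counts left out, 5.06% were at least 2-fold higher, and the whole interval lay past 2-fold for 2.85% higher and 2.56% lower. Beside a gene's ratio stand the values of alternatives that end or make a 2-fold difference, or that turn its direction with a move of over 1.5 times. Also given are values with a run or the highest cell left out that move a 2-fold difference by over 1.5 times. Smaller changes of sign near 0 are not listed. With a run left out, Wnt5a, at 0.17, fell as low as −0.16 and Klf5, at 0.03, as low as −0.17. A mean over cells is that of each cell's own CPM. Thinned cells were drawn down to 1500 counts each, muscle-rich cells are those the limit removes, and Ovgp1-rich or collagen-rich cells hold at least 5 counts of Ovgp1 or of Col1a1, Col1a2, Col3a1 and Dcn.

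The lists of related genes differed in balance. Their counts stand against 9.92% higher and 17.2% lower among all measured genes. The lists were chosen with earlier results of these data known, so this comparison is descriptive only. For runs without overlap the shares of all genes were 7.52% higher and 15.7% lower. Members of the progesterone-responsive list were mostly higher, at 6 of 10 measured, with a median of 2.56. Members of the lists for S phase, for G2 and M phase and for imprinted genes were mostly lower, at 16 of 29, 22 of 36 and 8 of 13, with medians of −1.17, −1.24 and −1.79. Against all pnd7 cells, the medians of pnd14 runs 3, 4 and 7 were 2.74, 2.61 and 2.26 for the progesterone list, −1.33, −0.97 and −0.88 for S phase, −1.66, −0.11 and −1.31 for G2 and M phase, and −1.08, 0.27 and −0.63 for imprinted genes. The median of run 4 thus stood apart in the last pair of lists. Run 4 holds 20 cells, and the floor of 3 counts given to a member without a count was 56.7 CPM in run 4, 28.9 CPM in run 3 and 26.7 CPM in run 7. By summed level, run 4 lay below every pnd7 run in both lists. It was at 2947 against 3319 to 3733 CPM for G2 and M phase, and at 2040 against 2409 to 3518 CPM for imprinted genes. The lists of oxidative phosphorylation, integrins and heat shock genes held at most 1 gene past 2-fold in either direction.

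**Figure D1:**
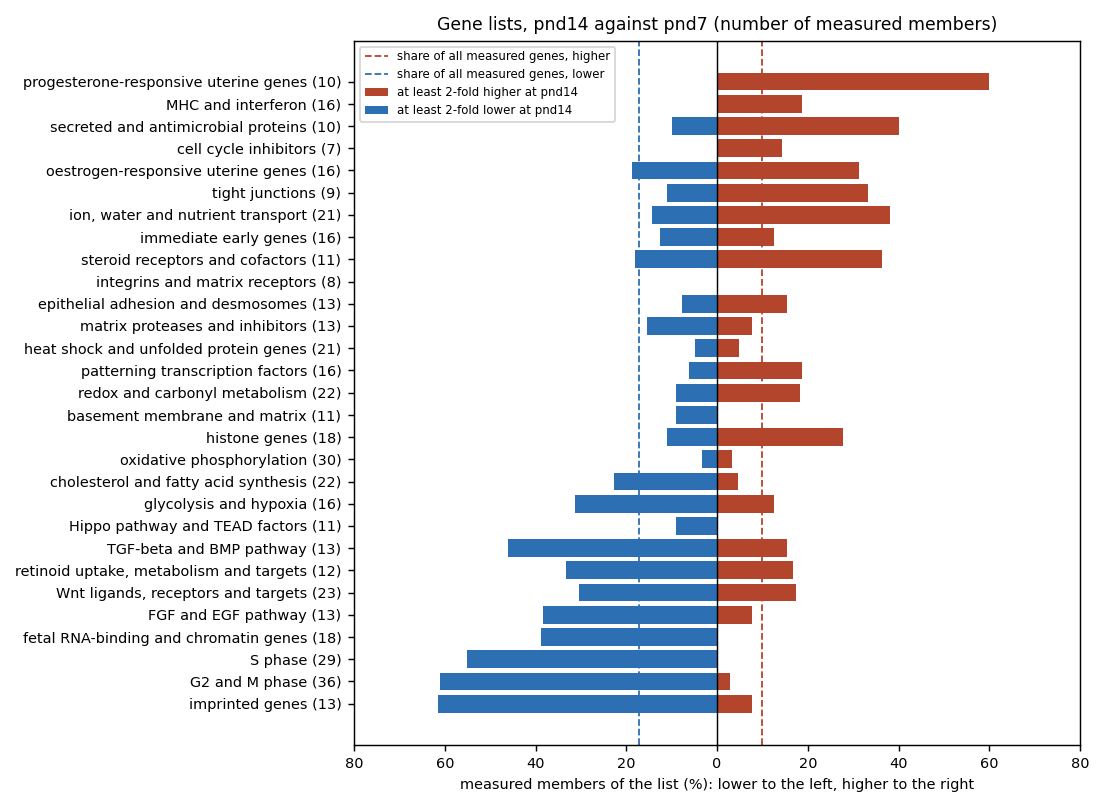
Share of the measured members (number in brackets) of each gene list with at least 5, cell type markers left out, that were at least 2-fold higher (right, red) or lower (left, blue) at pnd14, sorted by the list's median log2 ratio. Dashed lines mark the shares among all 5303 measured genes, 9.92% higher and 17.2% lower; among the lists drawn, the progesterone list reaches farthest to the right, and the imprinted and cell cycle lists farthest to the left.

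Genes much higher at pnd14 included secreted, metabolic and junctional proteins. Ovgp1 encodes oviductin, a glycoprotein secreted into the oviduct. It stood at 1485, 2172 and 3486 CPM in runs 3, 4 and 7 at pnd14 and at 46.98, 4.92 and 68.1 CPM in runs 5, 6 and 10 at pnd7, an order of runs kept for the values below. All 3 pnd14 runs lay far above the pnd7 runs, but the choice of genes required no overlap and favoured a wide gap. The log2 ratio was 5.84 [5.32, 6.42], a fold of 57.4, and 6.48 without run 10. Cbr2, a carbonyl reductase, had 1408, 925.7 and 2318 CPM in the pnd14 runs against 51.2, 59.002 and 64.3 CPM, a log2 ratio of 4.86 [4.39, 5.36]. Cited4, a transcriptional co-activator that binds CBP and p300, had 2362, 774.5 and 2024 CPM against 64.1, 88.5 and 56.7 CPM, a log2 ratio of 4.803 [4.37, 5.26]. Acot7, which hydrolyses fatty acyl-CoA, had 2275, 1549 and 2862 CPM against 170.8, 83.6 and 83.2 CPM, a log2 ratio of 4.40 [4.06, 4.76]. In each of these 3 genes the lowest pnd14 run lay above the highest pnd7 run, which the choice of genes required.

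Most of these genes were spread over many pnd14 cells. Acot7 was found in 64.9% [56.2, 72.96] of pnd14 cells and 11.2% [7.63, 15.7] of pnd7 cells, Cited4 in 67.9% [59.3, 75.7] and 6.56% [3.87, 10.3], and Cbr2 in 58.96% [50.1, 67.4] and 9.27% [6.03, 13.5]. With each cell thinned to 1500 counts, which left out 48 pnd14 and 13 pnd7 cells, the shares were 63.95% and 7.72% for Acot7, 65.1% and 6.10% for Cited4, and 60.5% and 5.69% for Cbr2. The gap in depth per cell thus left these shares far apart.

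Nme7, of the nucleoside diphosphate kinase family, was counted in 76.9% [68.8, 83.7] of pnd14 cells against 27.4% [22.1, 33.3], with a log2 ratio of 3.24 [2.96, 3.52]. Slc25a48, a mitochondrial carrier, was at 1581, 1058 and 1480.0 CPM in the pnd14 runs and 42.7, 191.8 and 287 CPM in the pnd7 runs. Its log2 ratio was 3.01 [2.72, 3.31], and 3.68 without run 10. The pnd7 runs of these genes were themselves unequal, with run 5 lowest in both. Jam2 and Cldn10 encode an adhesion molecule and a claudin of tight junctions. Jam2 had 694.2, 415.6 and 472.5 CPM in the pnd14 runs against 12.8, 39.3 and 15.1 CPM, a log2 ratio of 4.68 [3.91, 5.55], and 5.28 without run 6. Its neighbour Atp5j lies on the other strand, and the pair shared 11.02% of their counts cell by cell. Cldn10 had 221.8, 226.7 and 240.7 CPM against 0, 19.7 and 3.78 CPM, a log2 ratio of 5.02 [3.72, 6.69], with 4.43 without run 5 and 6.85 without run 6. The 3 pnd14 runs of Cldn10 were nearly equal, and all of the change with a left-out run came from its 5 counts at pnd7.

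Ltf, lactoferrin, an iron-binding antimicrobial protein of secretions, had 559.2, 188.9 and 454.7 CPM in the pnd14 runs and 21.4, 34.4 and 37.8 CPM in the pnd7 runs, a log2 ratio of 3.82 [3.16, 4.55]. Pcx, pyruvate carboxylase, had 511.01, 302 and 419.03 CPM against 21.4, 24.6 and 45.4 CPM, a log2 ratio of 3.78 [3.12, 4.51]. Neither gene's runs overlapped between the ages, which the choice of genes required. Mical2, which oxidises actin, had a log2 ratio of 4.38 [3.43, 5.50], and 6.12 without run 5. Ppap2b, a lipid phosphate phosphatase, had 3.97 [3.08, 4.99], and 6.87 without run 10. The pnd7 counts of both were few and lay mostly in the run named. The log2 ratio of Slc2a12, a sugar transporter, was 3.87 [2.97, 4.89], with 4.64 without run 6, and that of Stard5, a sterol-binding START protein, was 3.55 [2.55, 4.71], with 4.798 without run 6. Cwh43, which remodels the lipid of GPI anchors, had 50 counts at pnd14 and 2 at pnd7, a log2 ratio of 6.03 [4.10, 9.11].

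Genes much lower at pnd14 included proteins that carry retinoids. Stra6, through which cells take up retinol, stood at 38.6, 75.6 and 98.1 CPM in the pnd14 runs against 1259.8, 1278 and 665.7 CPM in the pnd7 runs. The log2 ratio was −3.88 [−4.62, −3.23], and the gene was found in 7.46% [3.64, 13.3] of pnd14 cells and 61.4% [55.2, 67.4] of pnd7 cells. Crabp1, which binds retinoic acid in the cell, had 3 counts at pnd14, all in run 3, and 456.96, 388.4 and 211.8 CPM in the pnd7 runs. Its log2 ratio was −4.95 [−7.24, −3.38], with −4.25 without run 3 and −4.17 without run 7. No pnd14 run reached a pnd7 run in either gene, which the choice of genes required.

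Tead2 encodes a DNA-binding partner of the Hippo pathway's co-activators. It was at 134.98, 56.7 and 213.97 CPM in the pnd14 runs and 811.4, 1096 and 896.4 CPM in the pnd7 runs, a log2 ratio of −2.60 [−3.09, −2.15], and was counted in 14.2% [8.76, 21.3] and 63.3% [57.1, 69.2] of cells. The runs of the ages did not overlap, which the choice of genes required, and its ranking by the interval favoured a wide gap. Igfbp2, which binds insulin-like growth factors, had 1 count at pnd14 and 149.5, 157.3 and 170.2 CPM in the pnd7 runs, a log2 ratio of −5.42 [−10.74, −2.92], with −4.72 without run 3 and −3.06 without run 7. Ltbp1, which holds latent TGF-beta in the matrix, had 3 counts at pnd14 and 175.1, 226.2 and 260.99 CPM in the pnd7 runs, a log2 ratio of −4.32 [−6.61, −2.74], and −5.20 without run 3. Mdk, the heparin-binding growth factor midkine, had 4 counts in 1 pnd14 cell and 256.2, 68.8 and 105.9 CPM in the pnd7 runs, a log2 ratio of −3.29 [−5.19, −1.89], with −2.58 without run 3 and −2.59 without run 5. Where the remaining pnd14 runs held no count, a floor of 3 counts over the age stood in. A value so obtained is a bound set by that floor and is not an end of the interval.

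Cldn6, a claudin of embryonic epithelia, had 1 count at pnd14 and 128.1, 78.7 and 177.8 CPM in the pnd7 runs. Its log2 ratio was −5.15 [−10.47, −2.64], with −4.45 without run 3, −3.25 without run 4 and −4.38 without run 7. Ece2, an enzyme that cleaves peptides, was not counted in any pnd14 cell and had 128.1, 108.2 and 109.7 CPM in the pnd7 runs. With the floor of 3 counts in place of none it was 10.3-fold lower. This bound is −3.37 on the log2 scale, with −2.67 without run 3 and −2.59 without run 7. The end of its interval lay nearer to no difference, at −3.04. Both genes were thus nearly or wholly missing from pnd14 cells.

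The remaining lower genes had few pnd14 counts. Arid3a, an AT-rich DNA-binding factor, had 1 count at pnd14 and 70 at pnd7, a log2 ratio of −4.74 [−10.07, −2.22], with −4.04 without run 3 and −2.38 without run 7. Acox3, a peroxisomal acyl-CoA oxidase, had 1 and 59 counts, a log2 ratio of −4.50 [−9.83, −1.96], with −3.79 without run 3 and −2.13 without run 7. Fscn1, which bundles actin filaments, had 5 counts at pnd14 and 204.99, 152.4 and 223.2 CPM in the pnd7 runs, a log2 ratio of −3.40 [−5.05, −2.14], and −2.70 without run 3. Slc35g1, a membrane protein of the solute carrier family 35, had 2 and 70 counts, a log2 ratio of −3.74 [−6.82, −1.84]. Nt5dc2, of the 5'-nucleotidase family, had −3.33 [−4.80, −2.18], with −2.63 without run 3 and −4.60 without run 4. The adjacent gene Stab1 on the other strand had nearly the same counts (−3.11 [−4.45, −2.04], −4.02 without run 4). The rows of Nt5dc2 and Stab1 shared 99.4% of their counts cell by cell, so they are 1 signal, and which gene it belongs to is uncertain.

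**Figure D2:**
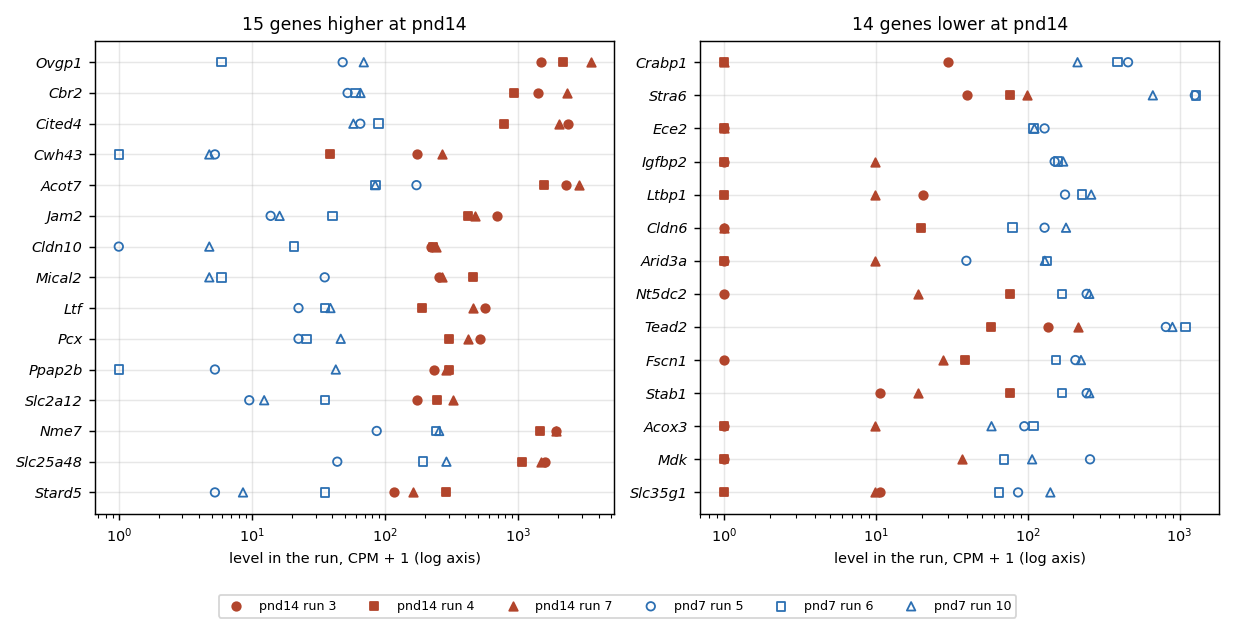
Level of the 15 higher and 14 lower genes named (CPM + 1, log axis) in the 3 pnd14 runs (filled red) and the 3 pnd7 runs (open blue); points at 1 stand for no count. For every gene the 3 red points lie on one side of the 3 blue points, which the choice of genes required; Nt5dc2 and Stab1 are 1 signal.

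The other ages of the series place these genes in time, with the same muscle limit applied. Ovgp1 was at 146.7 CPM at birth, 42.7 at pnd7 and 2455 at pnd14, and had no count at pnd28 or pnd56. Acot7 was at 2377 CPM at pnd14 and between 25.1 and 134.1 CPM at the other ages. Jam2 had no count at pnd28 or pnd56. Cbr2 and Ltf instead stood still higher later. Cbr2 was at 3206 CPM at pnd28 and 6969 CPM at pnd56, and Ltf at 2048 and 2963 CPM. Among the lower genes, Stra6 was at 1210.1 CPM at birth and at 48.8 and 62.8 CPM at pnd28 and pnd56, near its pnd14 level of 70.7 CPM. Tead2 went from 1140.3 CPM at birth to 152.5 CPM at pnd14 and was at 182.8 and 339 CPM later. Crabp1, Cldn6 and Mdk had no count at pnd28 or pnd56, in 48 and 44 cells. Mdk lies on the minus strand, where a low level carries little information. Later levels rest on 1 run at each age.

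**Figure D3:**
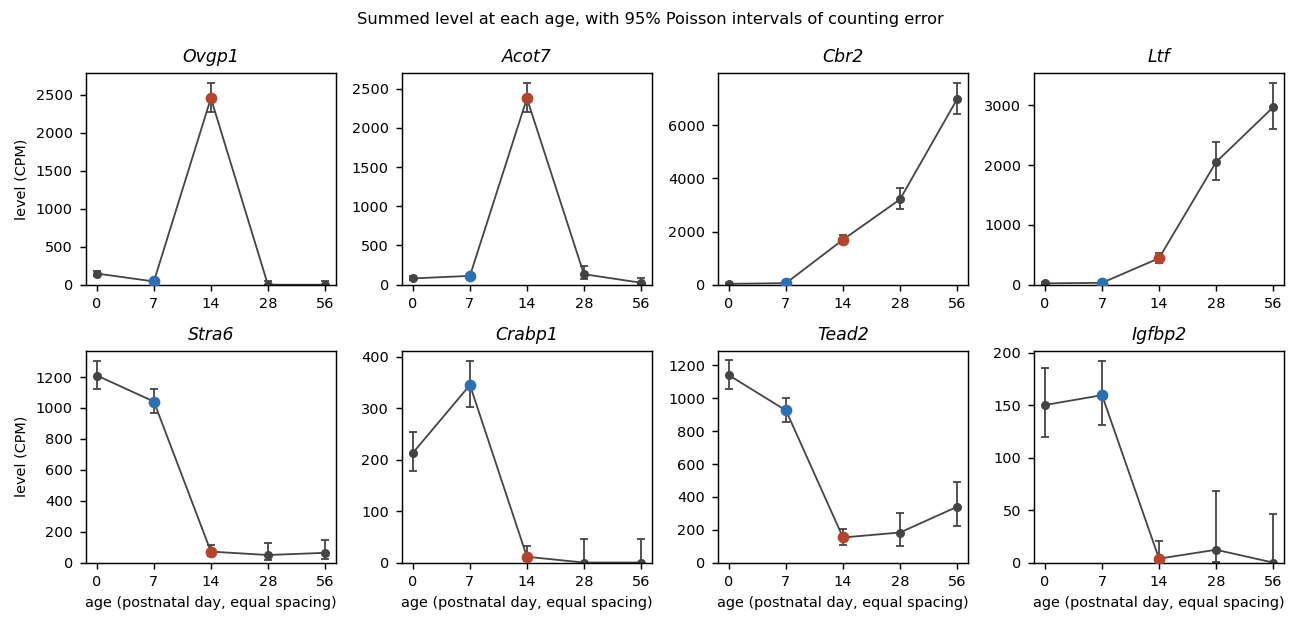
Summed level (CPM) of 8 of the named genes at the 5 ages of the series, with 95% Poisson intervals of counting error; pnd7 is blue and pnd14 red, and the ages are equally spaced on the axis. Ovgp1 and Acot7 are high at pnd14 alone among these ages, Cbr2 and Ltf are higher still at pnd28 and pnd56, and Stra6, Crabp1, Tead2 and Igfbp2 are high at birth and pnd7.

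Genes that respond to progesterone in the uterus were higher in 6 of 10 measured members and lower in none, against 9.92% of all genes higher. In 5 of the 6 every pnd14 run lay above every pnd7 run, against 7.52% of all genes. Calb1, the calcium-binding protein calbindin, had 154.3, 151.1 and 115.9 CPM in the pnd14 runs and was not counted in pnd7 cells. With the floor of 3 counts in place of none it was 32.2-fold higher. On the log2 scale this bound is 5.01, with 4.42 without run 5 and 4.33 without run 10. Lrp2, the endocytic receptor megalin, had 23 counts at pnd14 and 2 at pnd7, a log2 ratio of 4.91 [2.89, 8.04], with 3.97 without run 7 and 4.32 without run 5. Neither gene had a count at pnd0, pnd28 or pnd56. Lrp2 lies on the minus strand, with 25 counts in all cells, so its absence there carries little information. Gata2, a transcription factor of the progesterone response, had 867.8, 1398 and 615 CPM against 226.3, 260.6 and 208.04 CPM, a log2 ratio of 1.92 [1.62, 2.22]. Its pnd14 level of 866.8 CPM compares with 85.3 at pnd28 and 87.9 at pnd56.

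Sgk1, a kinase that controls ion transport, had a log2 ratio of 3.19 [2.02, 4.54], and 3.93 without run 10. Irg1, an enzyme that makes itaconate, had 106.1, 0 and 178.3 CPM in the pnd14 runs, none of it in run 4, against 17.1, 9.83 and 0 CPM. Its log2 ratio was 3.75 [2.47, 5.31], with 3.04 without run 7, 4.75 without run 5 and 3.07 without run 10. Cbr2 is the sixth member that was higher. Cyp26a1, which breaks down retinoic acid, was at 0.998 [−0.17, 2.13], just short of 2-fold, with 1.70 without run 3, 1.40 without run 10, 1.35 in thinned cells, 1.01 in Krt18-positive cells, 1.16 without Ovgp1-rich cells, 1.01 without collagen-rich cells and 1.03 as a mean over cells. Without run 7 it was 0.40. Pgr, the progesterone receptor itself, was at 0.35 [−0.53, 1.17], with −0.38 in thinned cells, and Ptgs1, a prostaglandin synthase, at 0.23 [−0.11, 0.57], with −0.39 without run 3. Without run 7 the median of the list was 1.37, and it was 0.41 over the members with at least 50 counts. In cells thinned to 1500 counts, 51.2% [40.1, 62.1] of pnd14 cells and 2.03% [0.663, 4.68] of pnd7 cells held at least 5 counts of the list. Unthinned, 57.5% and 18.1% did. These shares lean on few genes. The list summed to 3664, 3306 and 4172 CPM in pnd14 runs 3, 4 and 7. Cbr2, also named above by its large ratio, had 1408, 925.7 and 2318 CPM of this. With the Gata2 levels given above, the pair held most of the list's pnd14 counts. Shares of cells for the list without this pair were not computed.

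The receptor for oestrogen was higher and its classical targets were split. Esr1 had 433.9, 415.6 and 427.9 CPM in the pnd14 runs and 29.9, 172.1 and 90.8 CPM in the pnd7 runs, a log2 ratio of 2.19 [1.74, 2.65], with 2.78 without run 6. The pnd14 runs were nearly equal and all above the pnd7 runs. Esr1 was at 17.5 CPM at birth and at 378 and 515 CPM at pnd28 and pnd56. Of 16 measured oestrogen-responsive genes, 5 were at least 2-fold higher and 3 lower, with a median of 0.31. Among all genes 9.92% were higher and 17.2% lower, and the lower count lies near that share. Besides Ltf, the higher ones were Slc5a11, an inositol transporter, at 2.33 [1.92, 2.74], the immediate early factor Fos at 1.17 [1.09, 1.26], Padi2, which converts arginine to citrulline in proteins, at 3.16 [1.90, 4.62], and the secreted chaperone clusterin, Clu, at 1.15 [0.78, 1.51]. Padi2 was unstable, with 1.28 without run 3, 3.88 without run 7, 2.58 without run 5, 4.29 without run 10 and 2.38 without the cell with most of its counts, and Clu was 0.97 without run 10, 0.92 without the cell with most of its counts, 0.67 in thinned cells and 0.81 without Ovgp1-rich cells. The lower ones were the water channel Aqp5 at −2.77 [−4.68, −1.35] and the cornified envelope genes Sprr2b at −2.58 [−4.91, −0.95], with −1.88 without run 3 and −1.81 without run 7, and Sprr2f at −1.35 [−3.75, 0.40], with −0.65 without run 3, −0.57 without run 7, −1.96 without run 10, −0.49 without the cell with most of its counts, −0.60 in thinned cells and −0.73 as a mean over cells. Among all 11 steroid receptors and cofactors measured, 4 were higher and 2 lower, with a median of 0.17. The lower count again lies near the share of all genes.

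Of 12 measured retinoid genes, 2 were at least 2-fold higher, 4 lower and 6 neither, with a median of −0.35. Among all genes 9.92% were higher and 17.2% lower. Among uptake and binding proteins, besides Stra6 and Crabp1, the retinoic acid carrier Crabp2 had 77.1, 94.5 and 44.6 CPM in the pnd14 runs and 192.2, 216.3 and 234.5 CPM in the pnd7 runs, a log2 ratio of −1.68 [−2.48, −0.97]. The receptor Rara was at −1.04 [−1.91, −0.26], with −0.80 without run 7, −0.69 without run 10, −0.88 without the cell with most of its counts, −0.62 with the muscle-rich cells kept, −0.91 without Ovgp1-rich cells and −0.94 without collagen-rich cells. The higher ones were a pair of enzymes that oxidise retinol. Adh1, an alcohol dehydrogenase, was at 4.38 [3.04, 6.08], with 3.57 without run 3 and 3.70 without run 10, and its pnd14 run 4 (18.9 CPM) lay below pnd7 run 5 (21.4 CPM). Rdh10, a retinol dehydrogenase, was at 1.58 [0.996, 2.17], and its pnd14 run 3 (96.4 CPM) lay below pnd7 run 5 (98.2 CPM). Dhrs3, which reduces retinaldehyde, was at −0.42 [−0.76, −0.10]. The receptor Rxra was at 0.20 [−0.26, 0.65]. In 6 of the 12 every pnd14 run lay below every pnd7 run, against 15.7% of all genes. The summed share of the list was 0.154% of pnd14 counts and 0.287% of pnd7 counts. In thinned cells, 15.1% [8.30, 24.5] of pnd14 cells held at least 5 counts of the list against 41.5% [35.2, 47.9] of pnd7 cells. Unthinned, the shares were 26.9% and 64.5%.

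**Figure D4:**
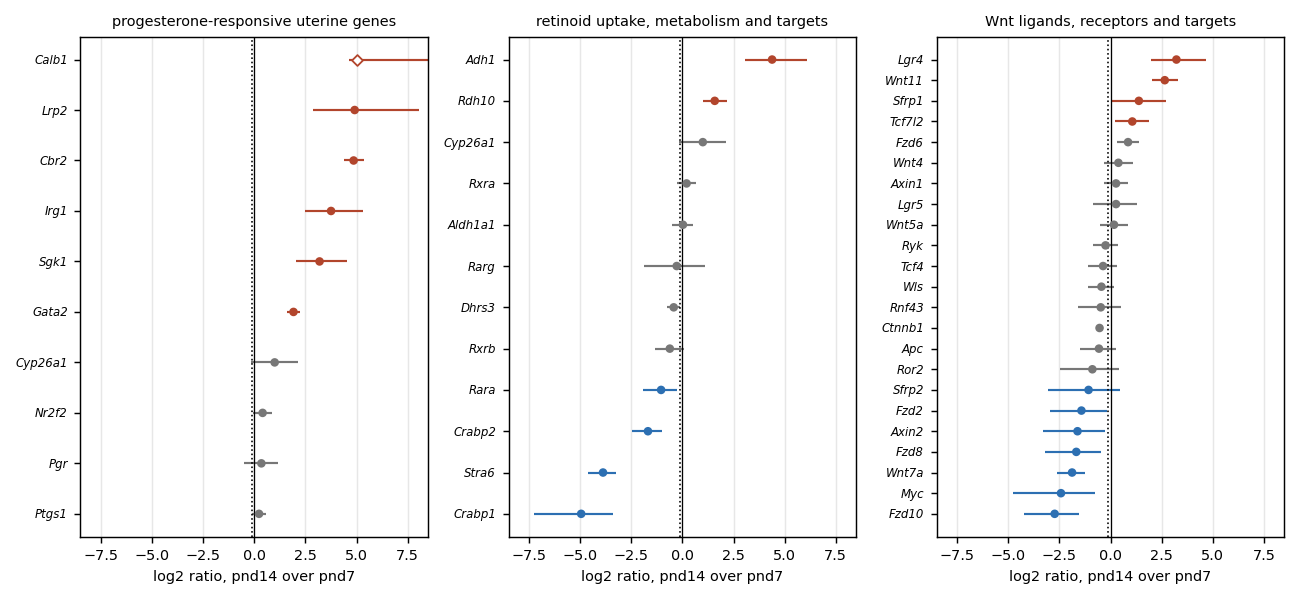
Log2 ratio of pnd14 over pnd7 for each measured member of the progesterone (left), retinoid (middle) and Wnt (right) lists. Lines are 95% intervals of counting error, cut at the edge of the axis, red and blue mark members at least 2-fold higher and lower, the open diamond is a bound for a gene without a count at pnd7, and the dotted line is the median of all measured genes (−0.12). The progesterone members past 2-fold all lie to the right, and the other lists hold members on both sides.

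Genes of cell division were lower. DNA replication genes make the copying machinery of S phase. Of 29 measured, 16 were at least 2-fold lower and none higher, against 17.2% and 9.92% of all genes. In 16 every pnd14 run lay below every pnd7 run, against 15.7% of all genes. Pole, the catalytic subunit of DNA polymerase epsilon, had 48.2, 0 and 44.6 CPM in the pnd14 runs and 247.7, 172.1 and 245.9 CPM in the pnd7 runs, a log2 ratio of −2.60 [−3.69, −1.68]. Mcm5, of the replicative helicase, was at −1.86 [−2.77, −1.07], with −2.89 without run 7. Lig1, the replicative DNA ligase, was at −1.88 [−2.87, −1.02], and Chaf1b, of the factor that puts histones on new DNA, at −1.29 [−1.82, −0.79], with −0.93 in thinned cells. Prim1, which makes the primers, was at −1.90 [−3.16, −0.85], with −2.61 without run 3. Pcna, the sliding clamp, had 163.9, 245.6 and 169.4 CPM against 375.8, 240.9 and 325 CPM, a log2 ratio of −0.80 [−1.28, −0.35], which is less than 2-fold, and its pnd14 run 4 lay just above pnd7 run 6. Mcm7 was at 0.62 [−0.67, 1.83], with −0.41 without run 3, 1.15 in thinned cells and 1.13 as a mean over cells. The median of the list was −1.17, and −1.74 without run 7.

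Genes of G2 and mitosis were lower in 22 of 36 measured members and higher in 1, with a median of −1.24. The shares of all genes were 17.2% lower and 9.92% higher. Runs 3, 4 and 7 had medians of −1.66, −0.11 and −1.31. In run 4 a member without a count was set at the floor of 56.7 CPM. The list summed to 1408, 2947 and 2059 CPM in these runs and to 3319 to 3733 CPM in the pnd7 runs. In 15 members every pnd14 run lay below every pnd7 run, and in none above, against 15.7% and 7.52% of all genes. Cdc25b, a phosphatase that starts mitosis, had 19.3, 0 and 26.7 CPM in the pnd14 runs and 128.1, 83.6 and 147.5 CPM in the pnd7 runs, a log2 ratio of −2.72 [−4.38, −1.44]. Cdca3, which acts in mitotic entry, had 28.9, 132.2 and 8.92 CPM against 162.3, 221.3 and 192.9 CPM, a log2 ratio of −2.22 [−3.26, −1.34], with −3.37 without run 4 and −1.58 without run 7. Its pnd14 run 4 stood far above the other pnd14 runs. Knstrn, an adaptor of the mitotic spindle, was at −3.17 [−5.08, −1.77], with −2.47 without run 3 and −2.39 without run 7. The spindle assembly factor Tpx2 was at −2.57 [−4.49, −1.14], with −1.87 without run 3 and −3.79 without run 7, and the chromosome-bound motor Kif4 at −2.64 [−4.56, −1.21]. The condensin subunit Smc2, which compacts chromosomes, was at −1.73 [−3.24, −0.51].

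The chromosomal passenger complex, which corrects the attachment of chromosomes to the spindle, was lower in both of its members named. Birc5, survivin, was at −1.95 [−2.94, −1.09], with −1.25 without run 3 and −2.76 without run 7. Aurkb, its kinase, was at −3.62 [−8.96, −1.03], with −2.91 without run 3, −1.25 without run 7 and −0.71 in thinned cells. Cdk1, the kinase that drives mitosis, had no count at pnd14 and 23 at pnd7. With the floor of 3 counts in place of none it was 2.94-fold lower. On the log2 scale it was at −0.85 without run 3, −0.77 without run 7 and −0.60 in thinned cells. The member that was higher is Spc24 of the kinetochore at 1.02 [0.45, 1.58], but with 0.36 without run 3, 0.89 without run 6, 0.76 without run 10, 0.87 without the cell with most of its counts, 0.21 in thinned cells, 0.83 with the muscle-rich cells kept, 0.97 in Krt18-positive cells and 0.97 with median-of-ratios scaling. Tuba1c, a tubulin, was at −0.25 [−0.52, 0.01], and Bub3, of the spindle checkpoint, at 0.36 [−0.32, 1.01].

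The difference in G2 and M phase genes lay in the cells with high sums. In thinned cells, 83.7% [74.2, 90.8] of pnd14 cells and 87.8% [83.1, 91.6] of pnd7 cells held at least 1 count of that list, against 70.9% [60.1, 80.2] and 93.1% [89.2, 95.9] for S phase. In cells thinned to 1500 counts, at least 5 counts of the S phase list were held by 12.8% [6.56, 21.7] of pnd14 cells and 42.7% [36.4, 49.1] of pnd7 cells. For the list of G2 and M phase the shares were 18.6% [11.02, 28.4] and 39.4% [33.3, 45.8]. Unthinned, they were 25.4% and 63.3% for S phase and 27.6% and 56.4% for G2 and M phase. By run, the thinned shares for G2 and M phase were 5.88%, 13.3% and 32.4% at pnd14 and 43.04%, 35.8% and 39.5% at pnd7, so that run 7 came near the pnd7 runs. For S phase they were 14.7%, 6.67% and 13.5% against 44.3%, 38.3% and 45.3%. A single pnd14 cell of run 4 held 12.3% of the counts of the measured G2 and M phase members at that age.

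**Figure D5:**
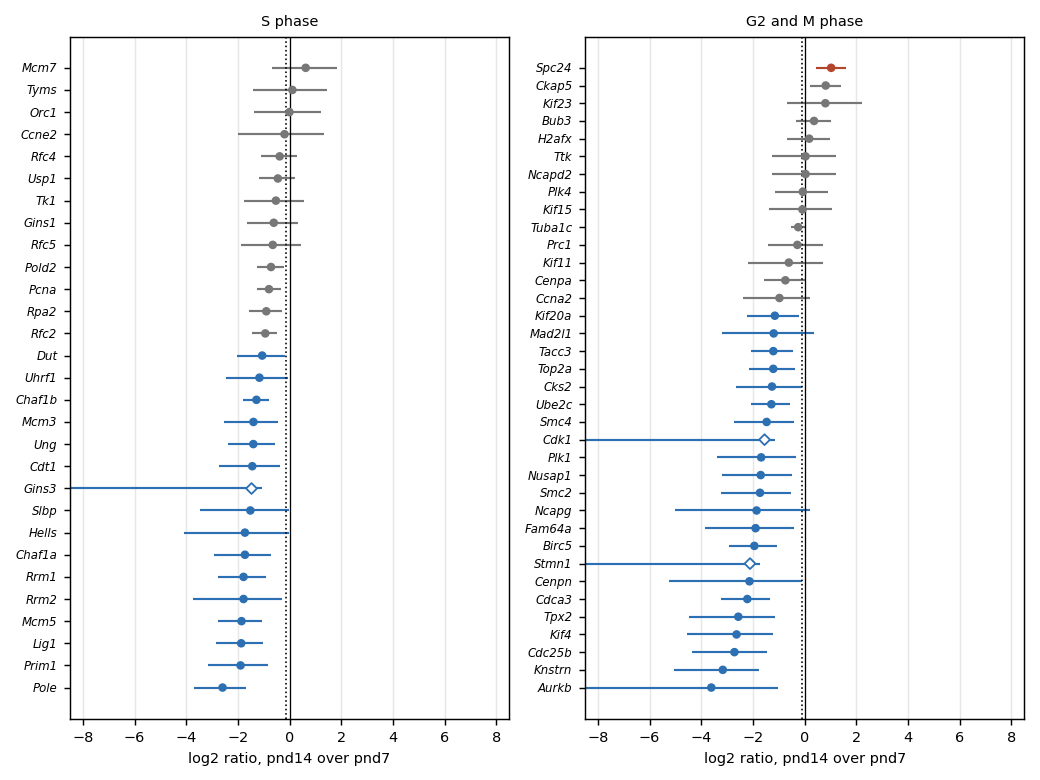
Log2 ratio of pnd14 over pnd7 for each measured gene of S phase (left, 29 genes) and of G2 and M phase (right, 36 genes). Lines are 95% intervals of counting error, cut at the edge of the axis, blue and red mark members at least 2-fold lower and higher, open diamonds are bounds for genes without a count at pnd14, and the dotted line is the median of all measured genes (−0.12). Most points lie left of that line.

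Mitotic genes share promoter elements, shown here for 3 lower ones whose promoters hold both elements and whose runs did not overlap between the ages. These 3 had the most counts among the genes considered for display, which did not cover the whole genome. The cell cycle homology region (CHR, letters TTTGAA) and the CCAAT box (letters CCAAT) were searched on both strands from 250 bases before to 50 bases after each start in RefSeq promoters of the GRCm38.p6 build. Neither motif contains the other. Capitals mark every match to either motif on either strand, and the build serves only for sequence, since the counts were made on mm9. The promoters are those of Cdca3 (chr6:124829926-124830225, plus strand), Kif4 (chrX:100625815-100626114, plus strand) and Smc2 (chr4:52438971-52439270, plus strand).
Cdca3: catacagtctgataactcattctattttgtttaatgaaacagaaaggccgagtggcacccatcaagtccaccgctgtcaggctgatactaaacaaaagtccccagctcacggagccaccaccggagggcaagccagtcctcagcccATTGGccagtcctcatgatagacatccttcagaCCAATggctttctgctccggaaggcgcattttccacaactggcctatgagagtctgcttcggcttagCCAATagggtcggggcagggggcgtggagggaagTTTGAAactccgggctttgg
Kif4: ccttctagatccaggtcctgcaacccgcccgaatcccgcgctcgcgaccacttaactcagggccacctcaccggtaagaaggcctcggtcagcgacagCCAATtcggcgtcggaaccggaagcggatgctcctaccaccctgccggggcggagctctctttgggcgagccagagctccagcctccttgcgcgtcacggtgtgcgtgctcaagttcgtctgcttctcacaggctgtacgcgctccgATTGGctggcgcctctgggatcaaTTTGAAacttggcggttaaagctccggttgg
Smc2: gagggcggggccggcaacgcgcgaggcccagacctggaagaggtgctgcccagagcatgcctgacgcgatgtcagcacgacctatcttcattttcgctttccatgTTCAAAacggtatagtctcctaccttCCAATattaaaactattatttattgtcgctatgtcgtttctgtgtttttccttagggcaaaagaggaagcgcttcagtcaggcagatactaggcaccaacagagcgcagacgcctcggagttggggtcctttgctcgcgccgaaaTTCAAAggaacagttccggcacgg
Of the 36 measured genes of G2 and M phase, 27 matched a promoter, and 18 of them (66.7%) held a CHR, against 13.5% of the 4069 measured genes with a promoter and 20.2% of all 27025 promoters. A CCAAT box was in 74.1%, against 41.8% and 41.1%. The motif did not single out the lower members: a CHR was in 9 of 16 that were at least 2-fold lower (56.25%) and in 9 of the 11 others (81.8%). The E2F motif (letters TTTNNCGC, both strands) was in 10 of 24 S phase promoters (41.7%) and in 10.6% of those of all measured genes. A pair of steroid receptor half-sites (letters ACANNNTGT) was in 1 of 8 promoters of the progesterone list (12.5%), against 5.06%. These are matches of letters only.

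Imprinted genes are read from 1 parental copy, and many promote or restrain fetal growth. Of 13 measured, 8 were at least 2-fold lower at pnd14 and 1 higher, against 17.2% and 9.92% of all genes. In 7 every pnd14 run lay below every pnd7 run, against 15.7% of all genes. H19, a long non-coding RNA, had 67.5, 0 and 62.4 CPM in the pnd14 runs and 136.7, 113.1 and 136.2 CPM in the pnd7 runs, a log2 ratio of −1.32 [−2.24, −0.50], with −0.999 without run 4, −0.87 with the muscle-rich cells kept and −0.59 as a mean over cells. Meg3, also non-coding, was at −2.14 [−4.07, −0.69], with −1.44 without run 3. Nnat, neuronatin, was at −2.18 [−3.85, −0.87], with −3.79 without run 3. Grb10, an adaptor that restrains insulin signalling, had 1 count at pnd14 and 33 at pnd7, a log2 ratio of −3.66 [−9.01, −1.08], with −1.37 without run 3, −2.88 without run 7 and −2.76 without run 10. Igf2r, which clears IGF2, had 1 and 29 counts, a log2 ratio of −3.47 [−8.83, −0.88], with −1.19 without run 3, −2.69 without run 7 and −0.99 in thinned cells. Dlk1, a Notch-like ligand, had none and 27 counts. With the floor of 3 counts in place of none it was 3.45-fold lower. On the log2 scale it was at −1.08 without run 3 and −1.01 without run 7. In all 6 every pnd14 run lay below every pnd7 run, and H19, Grb10 and Igf2r lie on the strand with few counts. Gnas, which encodes a G protein subunit and had the most counts of the list, was at −0.60 [−0.77, −0.44], and Mest at 0.35 [−0.48, 1.14], with −0.46 without the cell with most of its counts. The member that was higher is Dcn, a stromal proteoglycan, at 1.89 [0.99, 2.82], with 2.65 without run 10 and 1.04 without the cell with most of its counts. The median was −1.79, and it was −0.87 with the muscle-rich cells kept, −1.12 without run 3, −1.05 in thinned cells and −0.96 over members with at least 50 counts.

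Chromatin and RNA-binding genes of fetal cells were lower in 7 of 18 measured members and higher in none, with a median of −0.94. Among all genes 17.2% were lower and 9.92% higher. Set, a histone chaperone, had 366, 472.3 and 445.8 CPM in the pnd14 runs and 879.8, 880.1 and 949.4 CPM in the pnd7 runs, a log2 ratio of −1.11 [−1.41, −0.82], with −0.996 without run 3 and −0.98 with the muscle-rich cells kept. Hmga1, an architectural chromatin protein, was at −1.07 [−1.45, −0.70], with −0.90 without run 4, −0.99 without run 5, −0.98 in thinned cells, −0.97 without Ovgp1-rich cells and −0.98 as a mean over cells. Mex3a, an RNA-binding protein, was at −2.16 [−4.51, −0.49], with −2.97 without run 7. The DNA methyltransferase Dnmt3a was at −0.16 [−0.59, 0.25]. Histone genes had 5 of 18 higher and 2 lower, against the same shares of all genes, with a median of −0.04. Run 4 stood apart, with a list sum of 7972 CPM against 2382 and 2692 CPM in runs 3 and 7 and 2640 to 4672 CPM in the pnd7 runs, and with a median of 1.27 against −0.75 and −1.13. Hist2h2aa1 had 472.4, 472.3 and 526.02 CPM against 76.9, 29.5 and 75.6 CPM, a log2 ratio of 2.98 [2.48, 3.51], and the linker histone Hist1h1c was at 1.74 [1.27, 2.22]. The variant H2afz, with most counts, was at −0.80 [−1.02, −0.59]. Reads of near-identical histone genes can be split between copies.

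Wnt ligands differed in direction. Wnt7a, the Wnt ligand of the uterine epithelium, had 57.9, 37.8 and 115.9 CPM in the pnd14 runs and 341.7, 309.8 and 223.2 CPM in the pnd7 runs, a log2 ratio of −1.88 [−2.60, −1.23], with −2.49 without run 7. Wnt11 was higher, at 163.9, 302 and 392.3 CPM against 25.6, 54.1 and 56.7 CPM, a log2 ratio of 2.65 [2.04, 3.29]. The runs of neither ligand overlapped. Wnt4 was at 0.38 [−0.34, 1.08] and Wnt5a at 0.17 [−0.52, 0.83]. Of the receptors, Fzd10 was at −2.73 [−4.21, −1.56], Fzd2 at −1.42 [−2.95, −0.18], Fzd8 at −1.67 [−3.19, −0.45], with −0.97 without run 3 and −3.94 without run 4, and Fzd6 at 0.86 [0.32, 1.39], with 1.02 without run 7 and 1.199 without run 6. Lgr4, a receptor for R-spondins that raise Wnt signals, was at 3.22 [1.97, 4.67], with 4.44 without run 5 and 2.58 without the cell with most of its counts.

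Axin2 and Myc, both targets of the Wnt pathway, were lower. Axin2, which is switched on by beta-catenin and restrains it, had 19.3, 18.9 and 17.8 CPM in the pnd14 runs against 72.6, 39.3 and 56.7 CPM, a log2 ratio of −1.62 [−3.31, −0.27]. Myc was at −2.42 [−4.76, −0.78], with −1.72 without run 3 and −1.64 without run 7. Ctnnb1, beta-catenin itself, was at 1079.9, 1020.1 and 1052 CPM against 1525, 1568 and 1513 CPM, a log2 ratio of −0.54 [−0.73, −0.35], less than 2-fold with no overlap of runs. In all, 4 of 23 measured Wnt genes were higher and 7 lower, against 9.92% and 17.2% of all genes. The median was −0.45, with run medians of −0.37, 0.25 and −0.35. The list summed to 2729, 3041 and 3040 CPM in the pnd14 runs and to 3327 to 3552 CPM in the pnd7 runs.

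Other signalling lists are given against the 17.2% of all genes that were lower. Of 13 FGF and EGF pathway genes, 1 was higher and 5 lower, with a median of −0.75, and runs 3, 4 and 7 had medians of −1.31, 0.46 and −0.78. The list summed to 1099, 963.4 and 1970 CPM in these runs and to 1259 to 1657 CPM in the pnd7 runs. By this sum run 4 was the lowest run, and its median rests in part on the floor for members without a count. Besides Igfbp2, Fgf9, a ligand, was at −3.47 [−8.83, −0.88], with −1.19 without run 3, −2.69 without run 7 and −2.81 without run 6, and the receptors Fgfr1 and Met were at −1.35 [−2.24, −0.56], with −0.91 without run 10 and −0.87 with the muscle-rich cells kept, and −1.14 [−1.90, −0.45], with −0.87 without run 7 and −0.996 without run 6. The higher gene, Igfbp6, was at 4.66 [2.97, 7.02] on 3 pnd7 counts, with 5.26 without run 3, 3.16 without run 7, 4.07 without run 5, 3.98 without run 10 and 3.12 without the cell with most of its counts. The epithelial receptors Fgfr2 and Erbb2 were at 0.84 [0.42, 1.26], with 1.04 without run 3, 1.12 without run 5 and 1.02 with a muscle sum under 2, and 0.36 [0.09, 0.63], with −0.36 without run 7. Erbb2 had the most counts of the list.

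Of 13 TGF-beta and BMP pathway genes, 2 were higher and 6 lower, with a median of −0.31 and run medians of −0.41, 0.11 and −0.63. In run 4 a member without a count was set at the floor of 56.7 CPM. The list summed to 1755, 2418 and 1623 CPM in the pnd14 runs and to 2080 to 2447 CPM in the pnd7 runs. The inhibin subunit Inha was at −3.20 [−8.56, −0.58], with −2.50 without run 3, −1.30 without run 4, −2.42 without run 7 and −0.22 in thinned cells. The receptor Acvr2b was at −2.47 [−5.59, −0.49], with −3.16 without run 4 and −1.69 without run 7, while Acvr2a was at 1.61 [0.39, 2.85], with 0.35 in thinned cells. Tgfbr1 was at −1.19 [−1.97, −0.48], with −0.95 without run 4, −0.76 without run 5, −0.99 with the muscle-rich cells kept and −0.93 as a mean over cells. The inhibitor Smad7 was at −1.65 [−3.16, −0.42]. Id1 and Id3, targets of BMP signals with the most counts, were at −0.31 [−0.59, −0.03] and −0.31 [−0.57, −0.06]. Of 11 Hippo genes, Tead2 alone passed 2-fold, and Tead1 was at −0.76 [−1.23, −0.30]. Of 4 measured Notch genes 1 was lower, and the target Hes1 was at −0.66 [−1.28, −0.09], with −1.12 in thinned cells. Of 4 Hedgehog genes, 2 were lower.

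Among tight junction genes the claudins differed. Cldn3, the one with most counts, had 5650.0, 5289.5 and 5340.4 CPM in the pnd14 runs and 1422, 1967 and 1505 CPM in the pnd7 runs, a log2 ratio of 1.76 [1.65, 1.87]. Cldn10 and Jam2 were also higher, Cldn6 was lower, and Cldn7 was at 0.28 [0.07, 0.48]. Every pnd14 run of Cldn3 lay more than 2-fold above every pnd7 run. Thus 3 of 9 measured members were higher and 1 lower, against 9.92% and 17.2% of all genes. The summed share of the list was 0.801% of pnd14 counts against 0.339%. Of 13 adhesion and desmosome genes, 2 were higher and 1 lower, against the same shares of all genes. Jup, plakoglobin, was at 2.11 [1.26, 2.99], with 2.94 without run 6, while Cdh1, E-cadherin, was at 0.20 [−0.15, 0.53] and Dsp, desmoplakin, at −0.76 [−1.24, −0.31], with −1.28 without run 3. Of the keratins, Krt18 was at 0.23 [0.14, 0.31] and Krt7 at −1.07 [−1.44, −0.71], with −0.89 without run 6 and −0.94 as a mean over cells. Basement membrane and matrix genes had 1 lower of 11 and integrins none of 8. Tgfbi, a secreted matrix protein, was at 0.70 [0.49, 0.91]. Of 13 matrix protease genes 1 was higher and 2 lower.

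Transport genes were higher in 8 of 21 measured members and lower in 3, against 9.92% and 17.2% of all genes. Their median was 0.27. Fxyd3, a modulator of the sodium pump, had 1224, 831 and 945.04 CPM against 299, 486.8 and 230.7 CPM, a log2 ratio of 1.65 [1.40, 1.91]. Kcne3, a potassium channel subunit, was at 2.49 [1.495, 3.56]. Slc4a4, a bicarbonate transporter, was at 3.55 [1.95, 5.58]. It was at 2.75 without run 7, 2.84 without the cell with most of its counts and 1.51 without Ovgp1-rich cells. Slc12a2, which loads chloride into the cell, was at 1.12 [0.62, 1.62]. Without run 7 it was at 0.75, and without the cell with most of its counts at 0.87. The glucose transporter Slc2a1 was lower at −1.79 [−3.05, −0.73], with −3.08 without run 3 and −0.84 with the muscle-rich cells kept. Car2, a carbonic anhydrase, was at 0.27 [−0.15, 0.68], with run 4 high at 680.1 CPM and a ratio of −0.39 without run 4. Secreted and antimicrobial genes were higher in 4 of 10 and lower in 1. Wfdc18, a whey acidic protein, was at 3.11 [2.47, 3.78]. Wfdc2, of the same family and with most counts, was at −0.40 [−0.47, −0.33], and the mucin Muc1 at −0.63 [−1.09, −0.20]. The lower one, Prap1, was at −1.94 [−3.88, −0.47], with −1.20 without run 5.

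Of 16 measured patterning transcription factors, 3 were higher and 1 lower, against 9.92% and 17.2% of all genes. Their median was 0.09. Besides Gata2, the higher ones were Ehf, an epithelial ETS factor, at 2.61 [1.42, 3.92], and Hoxb5 at 2.04 [1.17, 2.95]. Hoxb8 was lower at −1.27 [−2.24, −0.42], with −0.57 without run 3, −4.19 without run 7, −0.88 with a muscle sum under 2 and −0.90 as a mean over cells. The Mullerian duct factors Pax2 and Emx2 were at −0.12 [−0.50, 0.24] and −0.40 [−0.94, 0.11], and Sox17, which acts in gland formation, at 0.00 [−0.87, 0.81]. Klf5, a factor of the luminal epithelium, was at 0.03 [−0.14, 0.19].

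In metabolism, 5 of 16 measured genes of glycolysis and hypoxia were lower and 2 higher, with a median of −0.23. The counts of this and the next lists stand against 17.2% lower and 9.92% higher among all genes. Eno1, enolase, had 289.3, 642 and 303 CPM in the pnd14 runs and 777.3, 974 and 1048 CPM in the pnd7 runs, a log2 ratio of −1.36 [−1.68, −1.05]. Gapdh was at −0.66 [−0.75, −0.57] and Pkm at 0.03 [−0.09, 0.15]. Hilpda, a protein of lipid droplets that responds to hypoxia, was higher at 337, 188.9 and 427.9 CPM against 46.98, 34.4 and 52.95 CPM, a log2 ratio of 2.92 [2.33, 3.55]. Of 22 genes of cholesterol and fatty acid synthesis, 1 (Acot7) was higher and 5 lower. Sqle, squalene epoxidase, was at −1.75 [−2.86, −0.81], with −2.44 without run 4, and Srebf1, a regulator of lipid synthesis, at −2.57 [−5.68, −0.59], with −3.25 without run 4, −1.79 without run 7 and −0.90 with the muscle-rich cells kept. Of 22 redox genes, 4 were higher and 2 lower. The cytochrome P450 Cyp2f2 was at 5.74 [3.80, 8.84] on 2 pnd7 counts, and the peroxidase Prdx2, with 694.2, 793 and 722.2 CPM against 1619, 1785 and 1698 CPM, at −1.23 [−1.45, −1.01]. Of 30 oxidative phosphorylation genes, 1 was higher and 1 lower, with a median of −0.12, the same as that of all genes. Of 16 immediate early genes, 2 were higher and 2 lower. Fos had 7839, 10315 and 8211 CPM against 3626, 2871 and 4562 CPM. MHC and interferon genes were higher in 3 of 16 and lower in none, against 9.92% and 17.2% of all genes. Their median was 0.53. Heat shock genes had 1 of 21 in each direction, and cell cycle inhibitors 1 higher of 7.

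Markers of the epithelial surface layer did not move as 1 group. Of 13 measured luminal markers, 5 were higher, among them Calb1, Ltf, Fxyd3 and Lpar3, a receptor for lysophosphatidic acid, at 2.04 [1.40, 2.69]. Another 5 were lower, among them Wnt7a, Met, Krt7, Prap1 and Sprr2f. The median was −0.62, and among all genes 9.92% were higher and 17.2% lower.

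Markers of other cells were counted beside these results, against 9.92% higher and 17.2% lower among all genes. Of 12 oviduct markers, 10 were in the table, 4 were measured, and 3 were at least 2-fold higher, Ovgp1, Cldn10 and Wt1, the last at 3.63 [2.51, 4.94], with 6.05 without run 5. Pax2, the fourth, was at −0.12 [−0.50, 0.24]. The summed level of the list was 2227 to 4172 CPM in the pnd14 runs and 359 to 540.9 CPM in the pnd7 runs. Of 17 ciliated cell markers 1 was measured, Ccdc78, at 1.46 [1.07, 1.85], and the list summed to 294 to 982 CPM against 158.9 to 187.9 CPM. Of 7 measured stromal markers 5 were higher and none lower, with a median of 1.73. Col1a2 was at 1.75 [0.87, 2.64], with 0.09 without run 7, 3.87 without run 10, 0.99 without the cell with most of its counts and 0.29 in thinned cells, and Col3a1 at 2.71 [1.60, 3.93], with 3.76 without run 10. The stromal sums were 585.6 to 1007 CPM and 442.5 to 555 CPM. In thinned cells, 4.65% [1.28, 11.5] of pnd14 and 3.25% [1.41, 6.31] of pnd7 cells held at least 5 stromal counts, and 7.46% and 8.11% did unthinned. Without run 7 the stromal median was 0.79. Endothelial markers were higher in 2 of 4, with sums of 623.4 to 877.4 CPM against 472.8 to 653.9 CPM. Of 2 measured immune markers 1 was lower, with sums of 18.9 to 160.5 CPM against 64.1 to 113.1 CPM. Of the 2 measured erythroid genes neither passed 2-fold, and of the 2 measured mesothelial genes Wt1 was higher. Smooth muscle markers, 4 of which set the limit for cells, summed to 249.6 to 337 CPM against 189.1 to 312 CPM. Of the squamous markers none was measured. Apart from the alternatives that keep or leave out groups of cells, the part of these cells in the gene results was not tested.

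Ovgp1 was unevenly shared among pnd14 cells. The 13 cells with at least 5 counts of it, 3 in run 3, 2 in run 4 and 8 in run 7, held 91.8% of its counts. They also held 47.1% of the counts of Ltf, 56.2% of those of Wfdc18 and 56.1% of those of Cyp2f2. They held 1.41% of the counts of Acot7, 4.40% of those of Cbr2 and 0.429% of those of Gata2, and had no count of Slc25a48 or Calb1. The 13 cells took 24286 of the 268815 counts at pnd14, and every one had a count of Krt18. With such cells left out at both ages, the log2 ratio was 2.62 for Ovgp1, 3.03 for Ltf, 2.04 for Wfdc18 and 4.68 for Cyp2f2. The value of Ovgp1 follows a cut on its own counts. The remaining pnd14 cells were not alike. In the 33 with 1 to 4 counts of Ovgp1, Ltf, Wfdc18 and Cyp2f2 were at 613.9, 499.7 and 185.6 CPM. In the 88 without a count of Ovgp1 they were at 114.6, 22.9 and 28.7 CPM.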

How the data were processed

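Single cells sorted for CD326 had been made into CEL-seq libraries, per the labels' protocols. The submitters' processing notes name TopHat, Cuffnorm and the mm9 build, but neither their roles nor their versions. The authors deposited 1 table of whole-number counts, with genes in rows and cells in columns. The sources used here do not give whether molecular identifiers were collapsed, or why 714 of 960 sorted cells were kept. No pair of the cells compared was a copy, the highest correlation of log2(count + 1) being 0.56.

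Counts were summed over the cells of an age, divided by their total and multiplied by 1000000 (CPM). Square brackets hold 95% intervals that cover counting error only, exact conditional binomial for ratios and exact Clopper-Pearson for shares of cells. An age with no count took a floor of 3 counts. A value from that floor is called a bound and is not an end of the interval. The calculation was tested on simulated data. No test was made, since each age is 1 sample, and 2-fold with at least 20 counts over both ages took its place. Genes were named by rule: at least 50 counts, detected in 10% or more of cells at the age where the gene was higher, no overlap of runs, and then the 15 largest in each direction, ranked by the interval's end nearer to 0. The 4 muscle genes were left out of the naming, and 1 lower gene so chosen is not reported here. The members and the 43 gene lists were chosen with earlier results of these data known. Other genes named are members of these lists, apart from Actb, Krt8, Foxa2 and Atp5j. Python 3.11.15, numpy 2.4.6, pandas 2.3.3, SciPy 1.17.1 and matplotlib 3.10.9 were used. GENCODE M21 gave strands and neighbours, RefSeq (GRCm38.p6) gave promoters, and no coordinate was moved between builds. No symbol in the annotation matched Ppap2b, so its strand and neighbours are not given. Alternatives left out each run, the highest cell of each gene or groups of cells, and changed the minimum count, the scaling and the depth per cell.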

Additional observations from a re-analysis of the deposited data

How the results depend on the processing

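Of the 5303 measured genes, 9.92% were higher and 17.2% lower. With a minimum of 50 counts in place of 20, 7.06% were higher and 12.99% lower of 3441 genes, and with a minimum of 5 there were 14.5% and 17.6% of 7955 genes. With the whole interval past 2-fold there were 2.85% and 2.56%. Without the cell that held most of a gene's counts, 5.06% were higher and 14.4% lower. The split of higher to lower genes differs under these settings. Leaving out a run gave 10.2% to 11.03% higher and 14.1% to 20.8% lower genes. The median of all genes stayed between −0.19 and −0.06 under every alternative run.

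List medians kept their sign in the lists that follow but moved. With the muscle-rich cells kept, the median was 2.44 for stroma, −0.84 for S phase and −0.87 for imprinted genes. Without run 7 it was 0.79, −1.74 for S phase and 1.37 for progesterone genes. With thinned cells it was 1.15 for progesterone and −1.05 for imprinted genes, and with a minimum of 50 counts 0.41 and −0.96. S phase was at −0.92 with a minimum of 5 counts. With plus-strand genes only, an alternative chosen after seeing the data, S phase was at −1.43 and progesterone genes at 1.46. Stroma was at 0.99 without the highest cell of each gene, and fewer than 5 of its members were left to give a median without collagen-rich cells, after thinning or with a minimum of 50 counts. With the muscle-rich cells kept, Fscn1 was at −1.69 and Ltbp1 at −2.71.

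Of the genes with values in the text, 74.2% were at least 2-fold in the value given, and 23 of these genes were under 2-fold in at least 1 alternative. Another 6 genes were at least 2-fold only in an alternative. Thinning put 11 genes under 2-fold and moved 41 of those at least 2-fold by over 1.5 times. None of those at least 2-fold changed direction under these alternatives. Of 2323 recomputed values, 2221 lay inside the interval printed. Depth limits the lower genes most: pnd14 holds 268815 counts, where the limit of 3 counts that a count of 0 allows is 11.2 CPM. No paired analysis was possible because the cells and runs carry no number shared between the ages and no test was made.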
